A study of Sus scrofa with 60 samples.

Results

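Genes of the collagens and the extracellular matrix were followed in the livers of neonatal pigs. The set was a list of 41 gene symbols, and its members were the rows of the deposited count table that carry one of them. A row was found for 40 of the 41 among 30335 named features. COL6A1 had none under that symbol. The 40 genes were described in 8 classes. These were fibrillar collagens (5 genes), other collagens (4 of 5 listed), basement membrane (8), fibronectin and elastic fibre (6), proteoglycans (4), crosslinking enzymes (3), proteases and their inhibitors (5), and matricellular proteins (5).

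The extracellular matrix is the protein network that holds a tissue together. Fibrillar collagens form its tension-bearing fibers, lysyl oxidases crosslink them, and laminins with type IV collagen form the sheets under epithelia and around vessels. Metalloproteinases degrade the network and the tissue inhibitors of metalloproteinases (TIMPs) hold them back, while matricellular proteins sit in the matrix and signal to cells. In the liver, matrix is made mainly by stellate cells and portal fibroblasts, and it accumulates around the portal tracts when bile flow is blocked.

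The pigs were of mixed Landrace and Hampshire breed, of both sexes, delivered 1 day preterm, and operated on after delivery. Bile duct ligation (BDL) closed the cystic duct and the common bile duct, and sham surgery opened the abdomen without ligation. Every pig, shams included, carried a jugular catheter and began on parenteral nutrition (PN). Feeding was then enteral with a milk replacer formula (ENT), or PN with the soy lipid emulsion Intralipid (SLE), or PN with the mixed lipid emulsion SMOFlipid (MLE). There were 12 sham and 10 BDL pigs on ENT, 10 sham and 11 BDL pigs on SLE, and 9 sham and 8 BDL pigs on MLE. Liver was taken at day 14, and polyadenylated RNA was sequenced in 60 libraries, each taken as 1 pig. Levels are given in CPM, read counts scaled to the effective size of each library, and differences are log2 fold changes ± SE of 1 edgeR quasi-likelihood model over all 60 pigs. A gene passed the test at a Benjamini-Hochberg adjusted p under 0.05 over the 16210 genes tested, two-sided, and all 40 members entered the test.

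The libraries held 14469788 to 21374161 counted reads. Hepatocyte genes were the most abundant of the marker lists, with ALB at a median of 46112 CPM. One pair of libraries stood apart. ENT-sham replicate 2 and ENT-BDL replicate 1, which share a 3-digit number in their labels, differed by a chi-square of 1.91 per degree of freedom over 15841 genes, against 16.1 for the next closest of 1770 pairs. Their matrix genes were alike as well, with COL1A1 at 1192 and 1191 CPM, and ENT-sham replicate 2 was the highest ENT-sham library for 30 of the 40 members. The labels place the libraries in different groups, so both were kept, and many results on ENT pigs are also given without both. ENT results given only once, and all marker counts and sums, include both libraries. SLE-sham replicates 9 and 10 carry the same letter and number in their labels. They differed by a chi-square of 34.2 per degree of freedom, against a median of 53.4 over pairs within a group. Whether they are 2 samples of 1 pig cannot be told from these values, and they were kept as 2 pigs. In bulk tissue, fewer cells of a type and less RNA per cell cannot be told apart.

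Levels were compared between genes as mean CPM per kilobase of gene length. FN1, which encodes fibronectin, was the most abundant member in all 6 groups, at 641 to 763 CPM per kb. COL18A1, COL3A1, and SPARC held the next ranks, save that COL1A1 (185 CPM per kb) stood above COL18A1 in MLE-BDL pigs. COL18A1 ranked above COL3A1 only in ENT-sham pigs, at 311 against 184 CPM per kb. In MLE-BDL pigs the order was turned, at 150.4 against 428. LTBP2, TNC, LUM, and VCAN held the 4 lowest ranks, save that FBLN2 stood below VCAN in MLE-BDL pigs, at 0.375 to 1.74 CPM per kb over all groups. TIMP1 moved farthest up the order between sham and BDL, from rank 25 of 40 in MLE-sham to rank 8 in MLE-BDL, from 17 to 10 on SLE, and from 24 to 15 on ENT.

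**Figure D1:**
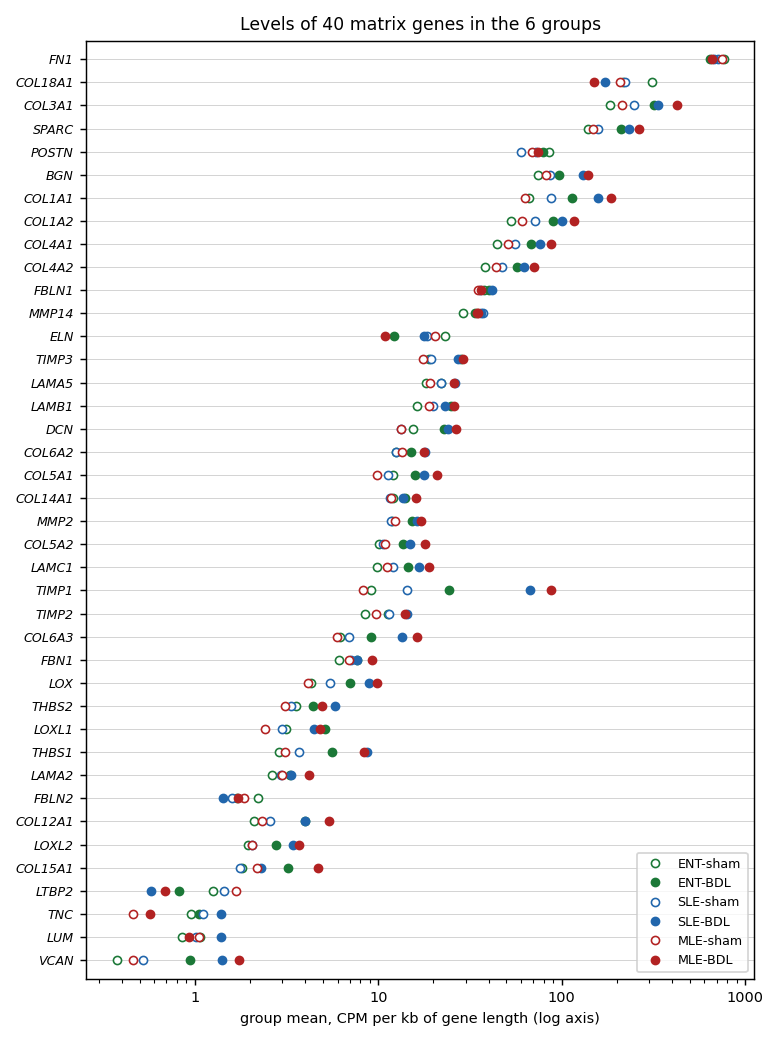
Group means of 40 matrix genes in CPM per kb of gene length (log axis), ordered by ENT-sham, with open symbols for sham and filled symbols for BDL, and green, blue, and red for ENT, SLE, and MLE. Within each diet the filled symbol of TIMP1 lies to the right of its open one (8.27 in MLE-sham and 88.0 in MLE-BDL), while those of COL18A1 and LTBP2 lie to the left.

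The first comparison asked which matrix genes differed between BDL and sham pigs on the same diet. On ENT, 18 of 40 members rose (45%), against 8.89% of all genes tested, and 1 fell (2.50%), against 8.53%. On SLE, 9 rose (22.5%, against 2.97%) and 1 fell (2.50%, against 1.57%). On MLE, 24 rose (60%, against 7.85%) and 2 fell (5.00%, against 6.58%). The median log2 fold change of the members was 0.42 on ENT, 0.46 on SLE, and 0.70 on MLE, beside medians of 0.00 to 0.01 over all genes. The members were chosen with earlier results of these data known, so these contrasts with all genes are a description and no test of the set.

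Most of these rises were under 2-fold. Past the test and above a 2-fold difference stood 2 members on ENT, VCAN and TIMP1, where 2.19% of all genes rose that far. Without both matching libraries there were 4, with COL12A1 (1.16 ± 0.20) and THBS1 (1.19 ± 0.24) added, where 3.01% of all genes rose that far. SLE had 3 such members, VCAN, TIMP1, and THBS1 (all genes, 1.2%), and MLE had 10 (all genes, 2.55%). Among falls, no member passed 2-fold on ENT (all genes, 1.2%), while LTBP2 did on SLE (all genes, 0.29%) and on MLE (all genes, 1.22%).

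LAMC1, VCAN, LOXL2, TIMP1, and THBS1 passed the test on all 3 diets. A further 13 members passed on ENT and MLE, 5 on SLE and MLE, 3 on MLE alone (COL1A1, COL5A2, and DCN), and MMP14 on ENT alone. The remaining 13 passed on no diet. These overlaps were not counted over all genes, so they are not read as particular to the members. Of all genes, fewer rose on SLE (2.97%) than on ENT (8.89%) or MLE (7.85%). A pass on 1 diet and not on another does not show that the diets differed, and that difference has its own test, given after the classes. Without the 2 matching ENT libraries, the members that rose on ENT numbered 22, where 10.7% of all genes rose, and those that fell numbered 3 (7.5%), where 10.2% fell. Members gained on ENT in that fit were COL1A1, COL5A2, COL6A3, and BGN among rises and LTBP2 and FBLN2 among falls. The same fit also moved COL5A2 (0.49, adjusted p = 0.0485), COL12A1 (0.62, adjusted p = 0.0443), LOX (0.70, adjusted p = 0.0440), and TIMP3 (0.48, adjusted p = 0.0267) past the test on SLE and LAMA2 (0.49, adjusted p = 0.0306) on MLE.

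On MLE, every BDL pig stood above every sham pig for 7 members, COL12A1, COL4A1, LAMB1, LAMC1, VCAN, TIMP1, and THBS1, a separation seen in 1.7% of all genes. No member separated in this way on ENT (0.0432% of all genes), on ENT without the 2 matching libraries (1.27%), or on SLE (0.0555%). Single pigs led many members at once. SLE-BDL replicate 2 was the highest of its group for 24 members and MLE-BDL replicate 3 for 28, while ENT-BDL replicate 5 was the lowest of its group for 25 and MLE-BDL replicate 1 for 27.

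**Figure D2:**
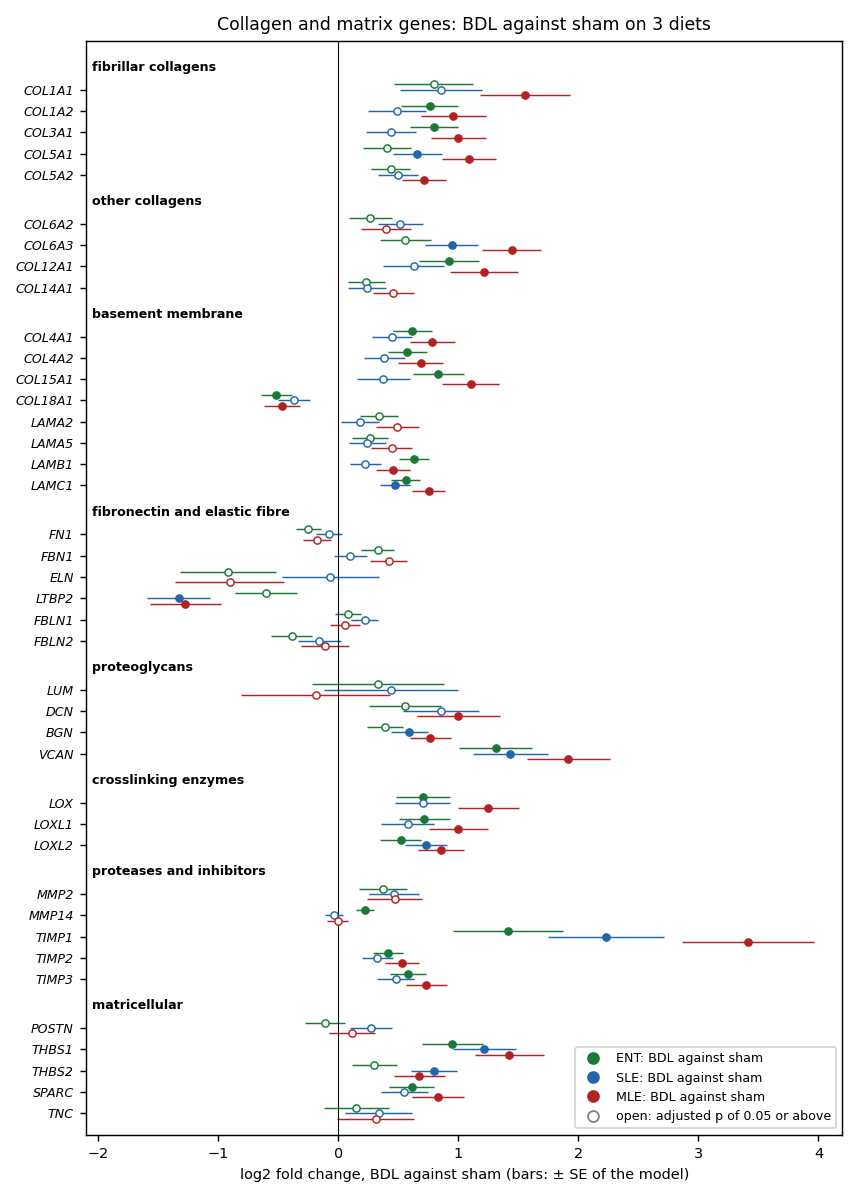
Log2 fold changes of BDL against sham for the 40 genes by class, with ENT in green, SLE in blue, and MLE in red, bars for the SE of the model, and open symbols for an adjusted p of 0.05 or above. TIMP1 reached 3.41 on MLE and LTBP2 lay lowest, at -1.33 on SLE.

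Among the fibrillar collagens, 2 of 5 genes rose on ENT (COL1A2 and COL3A1), 1 on SLE (COL5A1), and all 5 on MLE, where the median log2 fold change of the class was 1.00. COL1A1 encodes the main chain of type I collagen, the bulk collagen of scar (chr12:26379087-26397180, minus strand, on Sscrofa11.1 as are all positions here). Its level ran from 196 to 889 CPM (median 362) in MLE-sham pigs and from 525.8 to 1831 CPM (median 1124) in MLE-BDL pigs. Of 8 MLE-BDL pigs, 5 stood above the highest MLE-sham pig, replicate 9. The log2 fold change was 1.56 ± 0.38 (adjusted p = 0.00265), a 2.94-fold difference. On SLE the level was 246 to 1017 CPM (median 459) in sham pigs and 396 to 2845 CPM (median 636) in BDL pigs, with replicates 2 and 6 of SLE-BDL far above their group. The difference of 0.85 ± 0.34 did not pass the test (adjusted p = 0.141).

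COL1A1 in ENT pigs turned on single libraries. Sham levels were 202 to 1192 CPM (median 319), where the highest value came from replicate 2 and the next was 648 CPM, and BDL levels were 198 to 1191 CPM (median 688). The difference was 0.79 ± 0.33 (adjusted p = 0.0857) with all pigs, 1.07 (adjusted p = 0.00971) without ENT-sham replicate 2, and 0.95 ± 0.32 (adjusted p = 0.0263) without both matching libraries.

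COL3A1 encodes type III collagen, which forms fine reticular fibers and is the most abundant fibrillar collagen of these livers (chr15:93556914-93595678, plus strand). ENT-sham pigs held 589 to 1974 CPM (median 782) and ENT-BDL pigs 805 to 1973 CPM (median 1563). Apart from replicate 2, no ENT-sham pig exceeded 955 CPM, while the lowest ENT-BDL pig held 805. COL3A1 rose by 0.79 ± 0.20 (adjusted p = 0.00323). In MLE pigs it ran from 696 to 1462 CPM (median 1022) in sham to 1173 to 2857 CPM (median 2102) in BDL, with 7 of 8 BDL pigs higher than all sham pigs, and rose by 1.00 ± 0.23 (adjusted p = 0.00137). On SLE the difference was 0.44 ± 0.21 and did not pass (adjusted p = 0.233).

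COL5A1 encodes a chain of type V collagen, which starts the assembly of type I fibrils and sets their width (chr1:273934219-274083264, plus strand). MLE-sham pigs held 40.2 to 78.8 CPM (median 55.4) and MLE-BDL pigs 72.1 to 216 CPM (median 117), with 7 of 8 BDL pigs higher than all sham pigs. It rose by 1.09 ± 0.23 (adjusted p = 4.83e-04). SLE-sham pigs held 45.3 to 96.2 CPM (median 63.9) and SLE-BDL pigs 70.9 to 222 CPM (median 81.8). That rise of 0.66 ± 0.20 lay at the edge of the test (adjusted p = 0.0493), and it was lost in 41 of the 60 fits that left out 1 library, in the fit of the SLE groups alone (adjusted p = 0.0640), and with the replicate number (adjusted p = 0.0935) or the 3-digit number (adjusted p = 0.0527) as a block. COL1A2, the partner chain of COL1A1, rose by 0.76 ± 0.24 on ENT (adjusted p = 0.0188) and by 0.96 ± 0.27 on MLE (adjusted p = 0.0104). COL5A2 rose on MLE by 0.72 ± 0.18 (adjusted p = 0.00433), and on ENT stood at 0.43 ± 0.16 (adjusted p = 0.0513) with all pigs and at 0.48 ± 0.16 (adjusted p = 0.0245) without both matching libraries.

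**Figure D3:**
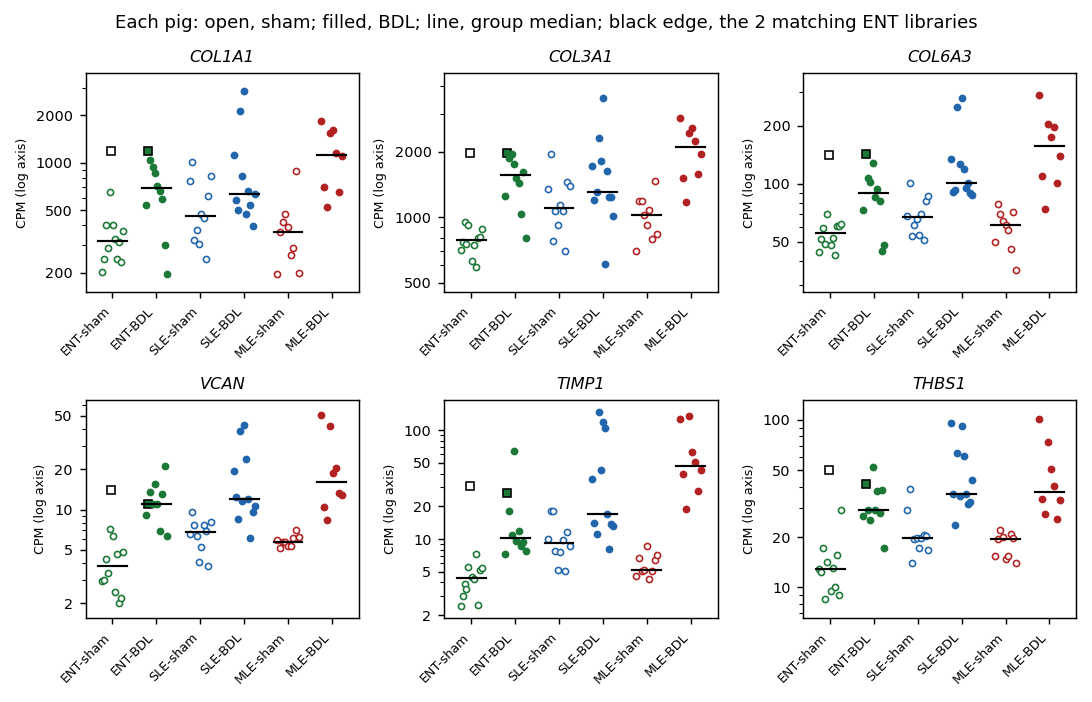
CPM of each pig (log axis) for COL1A1, COL3A1, COL6A3, VCAN, TIMP1, and THBS1 in the 6 groups, with open circles for sham, filled circles for BDL, lines at group medians, and black-edged squares for the 2 matching ENT libraries. The ENT-sham square lies with the ENT-BDL pigs in all 6 genes, and in SLE-BDL a few pigs lie far above the median, up to 147 CPM for TIMP1.

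Of the other collagens, COL6A3 and COL12A1 rose on MLE, COL6A3 on SLE, and COL12A1 on ENT. COL6A3 encodes the largest chain of type VI collagen, which forms beaded filaments around cells (chr15:137011549-137103687, minus strand). Its level was 51.3 to 101 CPM (median 66.9) in SLE-sham and 87.2 to 279.9 CPM (median 101) in SLE-BDL pigs. MLE-sham pigs held 35.7 to 78.4 CPM (median 61.3) and MLE-BDL pigs 74.1 to 289 CPM (median 157). Of 11 SLE-BDL pigs, 5 stood above all SLE-sham pigs, and 7 of 8 MLE-BDL pigs above all MLE-sham pigs. The rises were 0.95 ± 0.22 (adjusted p = 0.00707) and 1.44 ± 0.24 (adjusted p = 3.55e-05). On ENT, sham pigs held 42.9 to 141 CPM (median 55.6) and BDL pigs 44.7 to 142 CPM (median 89.4), a difference of 0.56 ± 0.21 (adjusted p = 0.0613) that became 0.64 ± 0.20 (adjusted p = 0.0185) without both matching libraries.

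COL12A1 encodes a collagen that decorates type I fibrils (chr1:90744409-90875127, plus strand). MLE-sham pigs held 18.0 to 37.7 CPM (median 26.8) and MLE-BDL pigs 39.6 to 107 CPM (median 58.4), with no overlap, and the rise was 1.21 ± 0.28 (adjusted p = 0.00189). ENT-sham pigs held 14.0 to 90.7 CPM (median 19.1), the highest again replicate 2 and the next 25.6 CPM, and ENT-BDL pigs 17.8 to 89.0 CPM (median 47.8). That rise was 0.92 ± 0.25 (adjusted p = 0.00620). COL14A1, another fibril-associated collagen, and COL6A2, a second type VI chain, passed the test in none of the 12 comparisons. A feature named LOC100623720 (chr13:208295245-208321789, plus strand), which the table describes as the alpha-1 chain of type VI collagen, is no member of the list. It differed by 0.45 ± 0.23 on ENT, 0.66 ± 0.24 on SLE, and 0.78 ± 0.26 on MLE, of which the last passed (adjusted p = 0.0369) and was lost in 10 of 60 fits without 1 library.

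The basement membrane class held both rises and a fall. On ENT 5 of its 8 genes rose (COL4A1, COL4A2, COL15A1, LAMB1, and LAMC1), on SLE LAMC1 alone, and on MLE the same 5 as on ENT. COL18A1 fell on ENT and on MLE. COL4A1 and COL4A2 encode the chains of type IV collagen, the sheet-forming collagen. COL4A1 (chr11:76858332-76997409, minus strand) ran from 275 to 417 CPM (median 291) in MLE-sham and from 424 to 824 CPM (median 517) in MLE-BDL pigs, without overlap, and rose by 0.78 ± 0.19 (adjusted p = 0.00209). On ENT it rose by 0.62 ± 0.16 (adjusted p = 0.00508). COL4A2 followed with 0.57 ± 0.16 on ENT (adjusted p = 0.00968) and 0.69 ± 0.19 on MLE (adjusted p = 0.00748). The ENT rise of COL4A2 missed the threshold in the fit of the ENT groups alone (adjusted p = 0.0525). The annotated spans of COL4A1 and COL4A2 overlap by 525 bases on opposite strands, and the library kit does not mark strand, so reads from the overlap cannot be assigned to 1 of them.

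COL15A1 encodes a basement membrane collagen of vessels that also carries sugar chains (chr1:240718128-240829188, plus strand). ENT-sham pigs held 5.15 to 17.3 CPM (median 8.57) and ENT-BDL pigs 8.01 to 22.8 CPM (median 17.2), and 5 of 10 BDL pigs stood above every sham pig. MLE-sham pigs held 6.43 to 16.7 CPM (median 11.7) and MLE-BDL pigs 10.8 to 35.7 CPM (median 26.3). The rises were 0.83 ± 0.21 (adjusted p = 0.00340) and 1.10 ± 0.24 (adjusted p = 7.91e-04). In SLE pigs the levels lay close, at 3.41 to 14.7 CPM (median 10.2) in sham and 6.65 to 21.1 CPM (median 11.3) in BDL, a difference of 0.37 ± 0.22 (adjusted p = 0.372).

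COL18A1 encodes the basement membrane collagen whose end fragment is endostatin, and hepatocytes are known to make it (chr13:207907835-207984082, plus strand). ENT-sham pigs held 1297 to 2939 CPM (median 2182) and ENT-BDL pigs 674 to 2074 CPM (median 1555). Of 12 ENT-sham pigs, 7 stood above every ENT-BDL pig, and replicate 2, at 1297 CPM, was the lowest sham pig. MLE-sham pigs held 1146 to 1756 CPM (median 1506) and MLE-BDL pigs 761 to 1231 CPM (median 1116), with 7 of 9 sham pigs above every BDL pig. COL18A1 fell by 0.52 ± 0.13 on the log2 scale on ENT (adjusted p = 0.00319) and by 0.47 ± 0.15 on MLE (adjusted p = 0.0230). The MLE fall did not pass without MLE-BDL replicate 7 (adjusted p = 0.0645). On SLE the difference was -0.37 ± 0.13 (adjusted p = 0.0964). Hepatocyte markers also fell on ENT and MLE, with their values among the cell type lists, and their part in the fall of COL18A1 was not tested.

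Laminins are multi-chain proteins of the same sheets. LAMC1, which encodes a gamma chain shared by most of them, passed on every diet. Its rise was 0.56 ± 0.12 on ENT (adjusted p = 5.37e-04), 0.47 ± 0.12 on SLE (adjusted p = 0.0171), and 0.75 ± 0.14 on MLE (adjusted p = 8.06e-05). The groups were tight, with MLE-sham pigs at 70.2 to 109 CPM (median 81.6) and MLE-BDL pigs at 119 to 182 CPM (median 146). LAMB1, a beta chain, rose by 0.63 ± 0.12 on ENT (adjusted p = 2.15e-04) and 0.46 ± 0.14 on MLE (adjusted p = 0.0212), the latter not without MLE-sham replicate 2 (adjusted p = 0.0610). The alpha chains LAMA2 and LAMA5 differed by 0.18 to 0.49 and passed on no diet.

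No gene of the fibronectin and elastic fibre class rose on any diet, and LTBP2 fell on SLE and MLE. LTBP2 encodes a microfibril protein related to the proteins that bind latent TGF-beta (chr7:97744974-97852848, minus strand). SLE-sham pigs held 3.88 to 20.1 CPM (median 12.5) and SLE-BDL pigs 2.62 to 9.93 CPM (median 4.07). MLE-sham pigs held 8.34 to 20.7 CPM (median 16.0) and MLE-BDL pigs 4.21 to 8.73 CPM (median 5.90). Of 10 SLE-sham pigs, 8 stood above every SLE-BDL pig, and 8 of 9 MLE-sham pigs above every MLE-BDL pig. LTBP2 fell by 1.33 ± 0.27 on the log2 scale on SLE (adjusted p = 0.00163) and by 1.28 ± 0.30 on MLE (adjusted p = 0.00166). ENT pigs held 5.80 to 17.3 CPM (median 11.7) after sham surgery and 1.85 to 15.2 CPM (median 8.08) after BDL, a difference of -0.61 ± 0.26 (adjusted p = 0.0954) that became -0.76 ± 0.27 (adjusted p = 0.0320) without both matching libraries.

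FN1, fibronectin, is secreted into plasma by hepatocytes as well as laid down by mesenchymal cells. It differed by -0.25 ± 0.10 on ENT, -0.08 ± 0.10 on SLE, and -0.17 ± 0.12 on MLE, and passed on no diet, though the ENT difference passed without ENT-sham replicate 2 (adjusted p = 0.0386). ELN encodes elastin, the core of elastic fibers, and single pigs lay far from the rest. MLE-sham pigs held 35.7 to 224 CPM (median 48.9) and MLE-BDL pigs 19.6 to 129.7 CPM (median 25.3), and the highest pigs were MLE-sham replicate 9 and MLE-BDL replicate 4. Its differences were -0.92 ± 0.40 on ENT, -0.07 ± 0.40 on SLE, and -0.91 ± 0.45 on MLE (lowest adjusted p = 0.106). Without MLE-BDL replicate 4 the MLE difference was -1.51 and passed (adjusted p = 0.0178). FBN1, the fibrillin of microfibrils, and the fibulins FBLN1 and FBLN2 differed by -0.39 to 0.42 and did not pass. FBLN2 became -0.51 ± 0.18 on ENT (adjusted p = 0.0342) without both matching libraries.

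Among the 4 proteoglycans, VCAN rose on every diet, BGN on SLE and MLE, and DCN on MLE. VCAN encodes versican, a large proteoglycan of provisional matrix that binds hyaluronan (chr2:91682177-91811674, plus strand). ENT-sham pigs held 2.01 to 13.9 CPM (median 3.82) and ENT-BDL pigs 6.39 to 21.2 CPM (median 11.04). SLE-sham pigs held 3.79 to 9.63 CPM (median 6.76) and SLE-BDL pigs 6.09 to 43.0 CPM (median 12.1). MLE-sham pigs lay within a narrow band, 5.15 to 7.02 CPM (median 5.75), and MLE-BDL pigs at 8.33 to 50.9 CPM (median 16.1), all above it. The rises were 1.31 ± 0.30 on ENT (adjusted p = 0.00137), 1.43 ± 0.31 on SLE (adjusted p = 0.00406), and 1.91 ± 0.35 on MLE (adjusted p = 7.62e-05). VCAN was the member with the lowest level per kilobase in ENT-sham and SLE-sham pigs, so a 3.77-fold rise left it at 1.74 CPM per kb in MLE-BDL pigs.

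BGN, biglycan, and DCN, decorin, are small proteoglycans that bind collagen fibrils. BGN rose by 0.59 ± 0.16 on SLE (adjusted p = 0.0180) and 0.77 ± 0.17 on MLE (adjusted p = 0.00122), and the SLE rise was lost without SLE-BDL replicate 2 (0.46) and in the fit of the SLE groups alone (adjusted p = 0.0544). On ENT BGN stood at 0.39 ± 0.15 (adjusted p = 0.0666) with all pigs and at 0.43 ± 0.16 (adjusted p = 0.0445) without both matching libraries. MLE-sham pigs held 10.8 to 34.8 CPM (median 18.2) of DCN and MLE-BDL pigs 15.3 to 63.1 CPM (median 38.0), a rise of 1.00 ± 0.35 (adjusted p = 0.0423) that was lost in 11 of 60 fits without 1 library and with no filter on low counts (adjusted p = 0.0694). LUM, lumican, lies 34945 bases from DCN and was near the lower end of detection, at medians of 0.776 to 1.63 CPM in the 6 groups. It differed by -0.19 to 0.44 with SEs of 0.55 to 0.62 and passed nowhere.

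Of the lysyl oxidases, which crosslink collagen and elastin, all 3 rose on ENT and on MLE, and LOXL2 alone rose on SLE. LOX (chr2:125595115-125607026, minus strand) ran from 3.34 to 9.74 CPM (median 6.99) in MLE-sham and from 6.74 to 26.3 CPM (median 15.4) in MLE-BDL pigs, with 7 of 8 BDL pigs higher than all sham pigs. Its rise was 1.25 ± 0.26 on MLE (adjusted p = 3.87e-04) and 0.70 ± 0.22 on ENT (adjusted p = 0.0220). SLE-sham pigs held 4.49 to 12.3 CPM (median 9.18) and SLE-BDL pigs 7.20 to 26.5 CPM (median 13.9), a difference of the same size as on ENT, 0.70 ± 0.23, that missed the threshold (adjusted p = 0.0618). LOXL2 rose by 0.52 ± 0.17 on ENT, 0.73 ± 0.18 on SLE, and 0.85 ± 0.19 on MLE (adjusted p = 0.0276, 0.00970, and 0.00135). The rise of LOXL1 was 0.72 ± 0.21 on ENT (adjusted p = 0.0128) and 1.00 ± 0.24 on MLE (adjusted p = 0.00280). The ENT rise of LOXL1 missed the threshold when the model held the ENT groups alone (adjusted p = 0.0521), and that of LOXL2 with the replicate number as a block (adjusted p = 0.0672) or without ENT-BDL replicate 2, 4, or 10 (adjusted p up to 0.0603).

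With all pigs, TIMP1 showed the largest fold change of the 40 members on every diet, and the other inhibitors rose less. TIMP1 encodes a secreted inhibitor of metalloproteinases (chrX:42103251-42106289, plus strand). ENT-sham pigs held 2.44 to 30.5 CPM (median 4.43) and ENT-BDL pigs 7.33 to 64.3 CPM (median 10.3). The ENT-sham maximum was replicate 2, with the next pig at 7.36 CPM, and the ENT-BDL maximum was replicate 2 of that group. SLE-sham pigs held 5.10 to 18.2 CPM (median 9.27) and SLE-BDL pigs 8.16 to 147 CPM (median 16.9). MLE-sham pigs held 4.31 to 8.68 CPM (median 5.21) and MLE-BDL pigs 18.9 to 135 CPM (median 47.2), where every BDL pig lay more than 2-fold above every sham pig. The rise was 1.41 ± 0.46 on ENT (adjusted p = 0.0247), 2.23 ± 0.48 on SLE (adjusted p = 0.00385), and 3.41 ± 0.55 on MLE (adjusted p = 1.70e-05), or 2.66-, 4.69-, and 10.6-fold. Without ENT-BDL replicate 2 the ENT value was 0.90 (adjusted p = 0.170), and without both matching libraries it was 1.93 ± 0.45 (adjusted p = 0.00118).

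TIMP2 and TIMP3, the latter bound to the matrix, rose on ENT by 0.41 ± 0.12 and 0.58 ± 0.15 (adjusted p = 0.0145 and 0.00397) and on MLE by 0.53 ± 0.14 and 0.73 ± 0.17 (adjusted p = 0.00642 and 0.00175). On SLE they differed by 0.32 ± 0.13 and 0.48 ± 0.15 without passing. The remaining 2 genes of the class are proteases. MMP14, a membrane-bound metalloproteinase that activates MMP2, ran from 97.5 to 136 CPM (median 119.6) in ENT-sham and from 111 to 154 CPM (median 139.9) in ENT-BDL pigs and rose by 0.22 ± 0.08 (adjusted p = 0.0329), a rise lost in 9 of 60 fits without 1 library. On SLE and MLE it differed by -0.04 ± 0.08 and -0.01 ± 0.09. MMP2, a gelatinase, differed by 0.37 to 0.47 and passed on no diet.

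Of the 5 matricellular genes, 2 rose on ENT (THBS1 and SPARC), 2 on SLE (THBS1 and THBS2), and 3 on MLE (THBS1, THBS2, and SPARC). THBS1 encodes thrombospondin-1, which can release active TGF-beta from its latent form (chr1:131728781-131746098, minus strand). ENT-sham pigs held 8.52 to 50.0 CPM (median 13.0) and ENT-BDL pigs 17.3 to 52.0 CPM (median 29.0), and the sham maximum was again replicate 2. SLE-sham pigs held 14.1 to 38.6 CPM (median 19.7) and SLE-BDL pigs 23.7 to 95.2 CPM (median 36.3). MLE-sham pigs held 14.0 to 22.0 CPM (median 19.3) and MLE-BDL pigs 25.5 to 102 CPM (median 37.0), without overlap. The rises were 0.95 ± 0.25 (adjusted p = 0.00574), 1.22 ± 0.26 (adjusted p = 0.00387), and 1.43 ± 0.29 (adjusted p = 3.79e-04) on ENT, SLE, and MLE.

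THBS2, a second thrombospondin, rose by 0.80 ± 0.19 on SLE (adjusted p = 0.00997) and 0.67 ± 0.21 on MLE (adjusted p = 0.0238), beside 0.30 ± 0.19 on ENT (adjusted p = 0.288). The MLE rise was lost without MLE-sham replicate 3, MLE-BDL replicate 3, or MLE-BDL replicate 7 (adjusted p up to 0.115), and the SLE rise in the fit of the SLE groups alone (adjusted p = 0.0607). SPARC, which binds collagen, rose by 0.61 ± 0.19 on ENT (adjusted p = 0.0181) and 0.83 ± 0.22 on MLE (adjusted p = 0.00516). POSTN, periostin, and TNC, tenascin-C, are often counted with fibrosis genes. POSTN differed by -0.11 to 0.27 and TNC by 0.15 to 0.34 between BDL and sham, and neither passed on any diet.

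Whether the response to BDL depended on diet was tested as a difference between the log2 fold changes of 2 diets. No member passed. Among all genes, 2.33% passed for SLE against ENT, 0.265% for MLE against SLE, and 0.0617% for MLE against ENT. The count of members was also 0 with DESeq2. At an unadjusted p under 0.05 stood 2 members for SLE against ENT (LAMB1 and MMP14), 1 for MLE against SLE (COL15A1), and 3 for MLE against ENT (COL5A1, COL6A3, and TIMP1). These were 5%, 2.5%, and 7.5% of members, against 14.8%, 9.76%, and 9.04% of all genes. TIMP1 had the largest difference, 1.999 ± 0.70 for MLE against ENT, with a 95% interval of 0.63 to 3.37 before adjustment (edgeR adjusted p = 0.335). COL6A3 differed by 0.89 ± 0.32, with an interval of 0.25 to 1.52 (adjusted p = 0.362). COL1A1 differed by 0.76 ± 0.50, with an interval of -0.21 to 1.74 that holds 0 (adjusted p = 0.697). These intervals also hold differences of more than 2-fold, so they do not show that the diets acted alike. Without ENT-sham replicate 2, or without both matching libraries, LAMB1 passed for SLE against ENT, at -0.49 (adjusted p = 0.0318) in the second case.

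Diets were then compared among BDL pigs and among sham pigs. These comparisons share pigs with those of BDL against sham. For SLE-BDL against ENT-BDL, 3 of 40 members passed (7.5%), all higher, against 19.6% of all genes in either direction. MLE-BDL against ENT-BDL gave 7 members (17.5%, against 16.8%), 5 higher and 2 lower. MLE-BDL against SLE-BDL gave 2 (5.00%, against 0.907%). Among shams, 5 passed for SLE against ENT (12.5%, against 27.5%), 3 for MLE against ENT (7.5%, against 21.1%), and 1 for MLE against SLE (2.50%, against 0.999%). With all pigs, the members' share lay below or near that of all genes in each comparison with ENT, and for SLE-sham against ENT-sham this did not hold without ENT-sham replicate 2.

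TIMP1 was higher in both PN-BDL groups than in ENT-BDL, by 1.45 ± 0.46 in SLE-BDL (adjusted p = 0.0208) and 1.84 ± 0.49 in MLE-BDL (adjusted p = 0.00604). Its BDL levels overlapped widely, and 3 of 11 SLE-BDL pigs and 2 of 8 MLE-BDL pigs lay above the highest ENT-BDL pig. Fitted on SLE-BDL and ENT-BDL pigs alone, the first difference did not pass (adjusted p = 0.112), nor did it in the full model without SLE-BDL replicate 2, 6, or 7 (adjusted p up to 0.0796). BGN was higher by 0.43 ± 0.16 in SLE-BDL (adjusted p = 0.0449) and 0.52 ± 0.17 in MLE-BDL (adjusted p = 0.0247), and TIMP2 by 0.35 ± 0.13 in SLE-BDL (adjusted p = 0.0418). In MLE-BDL pigs, COL6A3 (0.83 ± 0.23, adjusted p = 0.00935), VCAN (0.89 ± 0.32, adjusted p = 0.0469), and LAMC1 (0.38 ± 0.13, adjusted p = 0.0385) were also higher than in ENT-BDL. Of 60 fits that left out 1 library, the VCAN call was lost in 43, LAMC1 in 34, BGN in 33 for SLE-BDL and 4 for MLE-BDL, and TIMP2 in 16. With the 3-digit number of the labels as a block, in MLE-BDL pigs BGN stood at 0.44 (adjusted p = 0.136) and VCAN at 0.93 (adjusted p = 0.108), so that these calls were lost, while TIMP1, COL6A3, and LAMC1 still passed.

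TNC was lower in MLE pigs than in the other diets, after either surgery (chr1:255533235-255630381, minus strand). Sham levels were 3.29 to 13.8 CPM (median 6.95) on ENT, 3.45 to 19.9 CPM (median 7.34) on SLE, and 2.57 to 6.35 CPM (median 3.08) on MLE. BDL levels were 6.07 to 12.7 CPM (median 7.70), 4.09 to 33.2 CPM (median 10.9), and 2.81 to 7.28 CPM (median 4.06) in the same order. The log2 fold change of MLE against ENT was -1.05 ± 0.30 in sham (adjusted p = 0.00701) and -0.89 ± 0.31 in BDL pigs (adjusted p = 0.0392). Against SLE it was -1.26 ± 0.31 (adjusted p = 0.0239) and -1.29 ± 0.31 (adjusted p = 0.0234). The 3-digit number has 8 values, of which MLE pigs hold 4, and its meaning is not given. With that number as a block, the 4 values were -0.78, -0.64, -0.98, and -0.85, and none passed (lowest adjusted p = 0.0964). Leaving out 1 library lost the call against ENT-BDL in 9 of 60 fits, against SLE-sham in 5, and against SLE-BDL in 4.

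COL15A1 was higher in MLE-BDL than in SLE-BDL pigs by 1.03 ± 0.23 (adjusted p = 0.0114). In 6 of 8 MLE-BDL pigs it lay above every SLE-BDL pig. With the 3-digit number as a block the difference was 0.81 and did not pass (adjusted p = 0.231). COL18A1 was lower in PN shams. The log2 fold change against ENT-sham was -0.49 ± 0.13 in SLE-sham (adjusted p = 0.00331) and -0.58 ± 0.14 in MLE-sham pigs (adjusted p = 0.00106). Of 12 ENT-sham pigs, 10 stood above every SLE-sham pig and 11 of 12 above every MLE-sham pig, the exception in the latter being replicate 2. In MLE-BDL it stood at -0.53 ± 0.14 against ENT-BDL (adjusted p = 0.00721). The number as a block left these 3 differences past the test, at -0.64, -0.75, and -0.67. The median summed level of hepatocyte markers was 72840.3 CPM in SLE-sham and 81237 CPM in MLE-sham against 100626 CPM in ENT-sham pigs, with overlapping ranges, and 49905 CPM in MLE-BDL against 56429 CPM in ENT-BDL pigs, and its part in the differences of COL18A1 was not tested.

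MMP14 was higher in PN shams than in ENT-sham, by 0.35 ± 0.08 on SLE (adjusted p = 2.47e-04) and 0.26 ± 0.08 on MLE (adjusted p = 0.0107), the latter not without MLE-sham replicate 2 (adjusted p = 0.0529). TIMP2 was higher in SLE-sham by 0.44 ± 0.12 (adjusted p = 0.00529). FBLN2 and POSTN were lower in SLE-sham, at -0.48 ± 0.18 (adjusted p = 0.0351) and -0.50 ± 0.17 (adjusted p = 0.0208), and the former was lost in 7 of 60 fits without 1 library. With the 3-digit number as a block, MMP14 on MLE stood at 0.18 (adjusted p = 0.185) and POSTN at -0.32 (adjusted p = 0.142), so that both calls were lost. The comparison of SLE-sham with ENT-sham rested most on 1 library. Without ENT-sham replicate 2 the count of members past the test was 15 in place of 5 (37.5%, against 28.9% of all genes). Without both matching libraries it was 14 (35%, against 29.3%), of which 11 were higher in SLE-sham. Those gained included COL3A1, at 0.60 (adjusted p = 0.0111), LAMC1, at 0.45 (adjusted p = 1.82e-04), and COL12A1, at 0.67 (adjusted p = 0.00656).

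**Figure D4:**
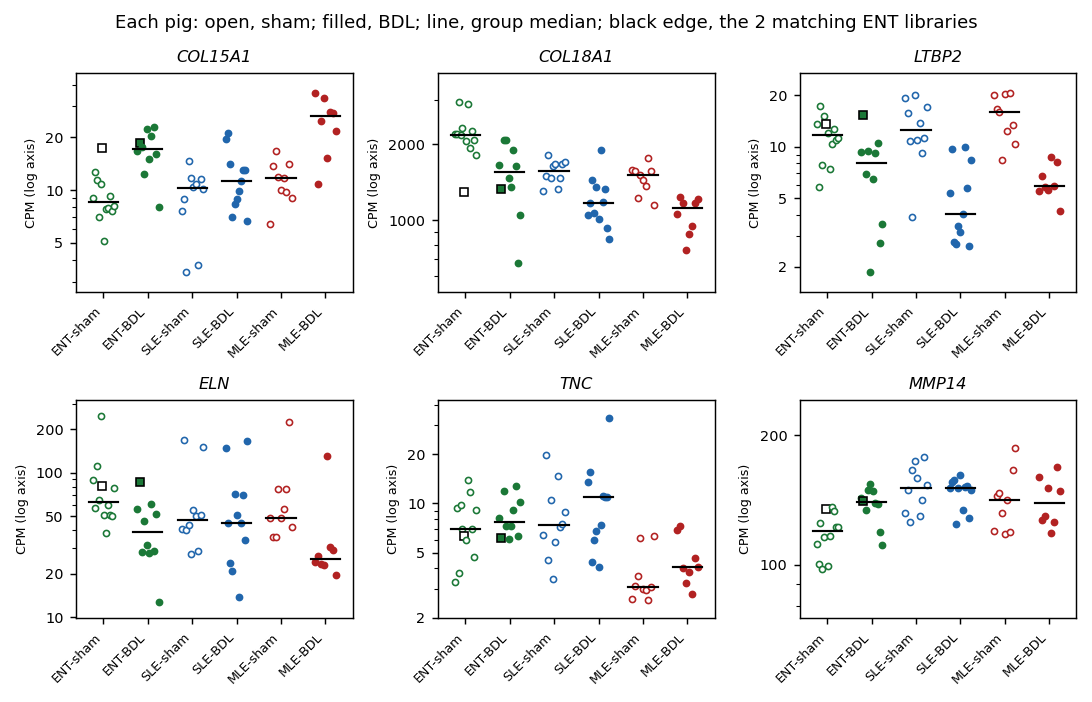
CPM of each pig (log axis) for COL15A1, COL18A1, LTBP2, ELN, TNC, and MMP14 in the 6 groups, with open circles for sham, filled circles for BDL, lines at group medians, and black-edged squares for the 2 matching ENT libraries. COL18A1 and LTBP2 are lower in BDL than in sham pigs by their medians on each diet, TNC is low in both MLE groups (medians 3.08 and 4.06 CPM), and single pigs of ELN reach 246 CPM.

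Some members encode chains that assemble into 1 protein, and their levels were compared over the 60 pigs after group means of log2 CPM had been subtracted. The pairs numbered 5. COL1A1 and COL1A2 varied together with a Pearson r of 0.926 and a Spearman rho of 0.906. For COL5A1 and COL5A2 the values were 0.761 and 0.777, and for COL6A2 and COL6A3 0.863 and 0.856. COL4A1 and COL4A2, whose spans overlap, gave 0.977 and 0.958. LAMB1 and LAMC1 gave 0.705 and 0.586. Each permutation p was 1e-05, also after adjustment over the 5 pairs, which is the smallest that 100000 permutations within groups can give. The test asks only whether the genes of a pair varied together. Members that share no protein were not paired, so a coupling particular to partner chains was not tested.

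Leaving out the 2 pigs farthest from the median of the first gene gave r = 0.904 for the type I chains, 0.849 for type V, 0.969 for type IV, 0.822 for type VI, and 0.601 for the laminin chains. Subtracting the 3-digit number as well left 0.569 to 0.977. The laminin pair leaned most on single libraries, with r = 0.517 without both matching ENT libraries and 0.0483 to 0.872 within single groups. The median ratio of COL1A1 to COL1A2 per kilobase was 1.21, 1.18, and 0.996 in ENT-, SLE-, and MLE-sham pigs and 1.39, 1.42, and 1.60 after BDL. That of COL6A2 to COL6A3 ran the other way, from 2.18 in MLE-sham to 1.18 in MLE-BDL pigs. These ratios are given as values and were not tested.

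**Figure D5:**
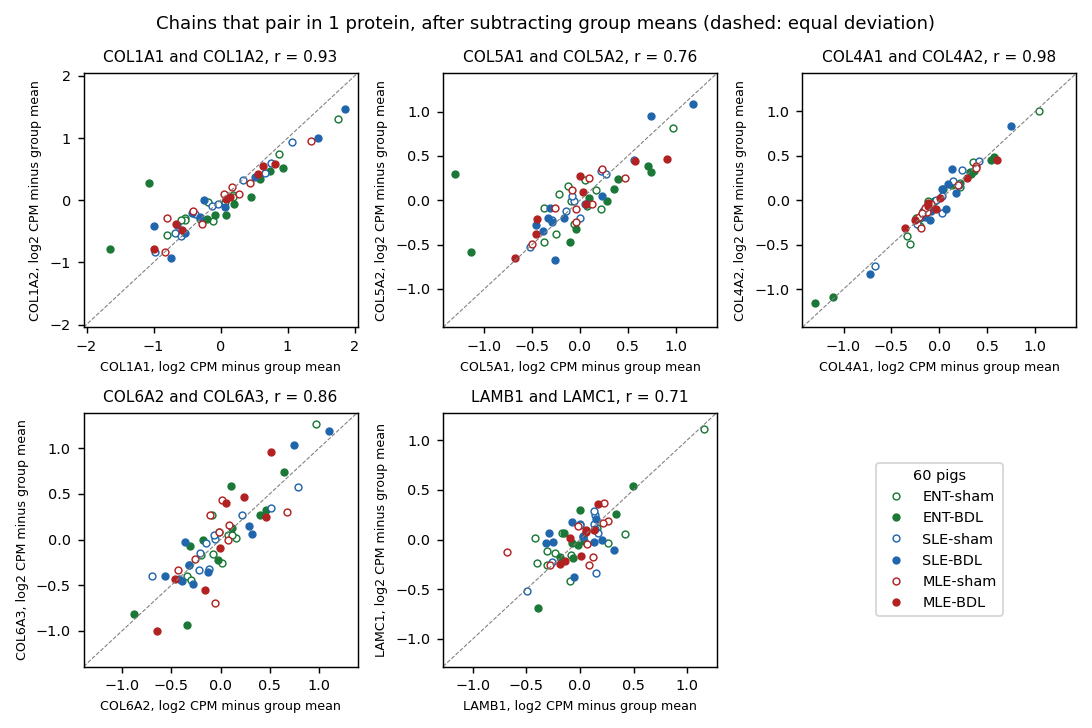
Log2 CPM minus the group mean for the 5 pairs of partner chains, 1 point per pig, with open symbols for sham, filled symbols for BDL, the diet colors of the other plots, and a dashed line of equal deviation. Points of the type IV pair lie along the line (r = 0.977), and those of the laminin pair spread most (r = 0.705), with 1 ENT-sham pig at the upper right end.

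Other matrix genes outside the set were counted from 5 further lists of 137 genes, beside which 8.89%, 2.97%, and 7.85% of all genes rose and 8.53%, 1.57%, and 6.58% fell on ENT, SLE, and MLE. Of 27 collagen synthesis and crosslinking enzymes tested, 3 rose and 2 fell on ENT, 5 rose on SLE, and 7 rose on MLE, and the median log2 fold change was 0.00, 0.19, and 0.11 on the 3 diets. Among them LOXL4, another lysyl oxidase, rose on SLE by 1.28 ± 0.29 (adjusted p = 0.00485) and on MLE by 1.55 ± 0.32 (adjusted p = 3.99e-04). FKBP10, a chaperone of collagen folding, rose on ENT by 1.00 ± 0.20 (adjusted p = 2.15e-04) and on MLE by 1.10 ± 0.23 (adjusted p = 4.17e-04). Of 19 other collagen chains, 3, 3, and 4 rose and 1, 1, and 1 fell on ENT, SLE, and MLE (medians 0.22, 0.13, and 0.34). COL7A1, which forms anchoring fibrils under epithelia, rose by 1.08 ± 0.32, 1.502 ± 0.33, and 2.25 ± 0.37, and COL16A1 by 1.38 ± 0.28, 1.00 ± 0.29, and 1.46 ± 0.33. COL8A1, a short-chain collagen of vessels, rose on ENT (0.99 ± 0.28) and MLE (1.41 ± 0.33), with 0.16 ± 0.29 on SLE, and COL5A3 on SLE (1.03 ± 0.29) and MLE (1.10 ± 0.31), with 0.66 ± 0.28 on ENT.

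Of 17 other basement membrane genes, 4 rose on each diet, and 2, 0, and 4 fell (medians 0.34, 0.23, and 0.49). NTN4, a laminin-related netrin, rose by 1.13 ± 0.21, 0.82 ± 0.21, and 1.56 ± 0.24 on ENT, SLE, and MLE. LAMA1 rose on ENT (1.57 ± 0.35), and LAMA3, a laminin alpha chain of epithelia, on SLE (0.72 ± 0.21) and MLE (1.13 ± 0.23), the former not with the 3-digit number as a block, 0.69 (adjusted p = 0.0538). Of 28 other proteases and inhibitors, 10, 7, and 12 rose and 2, 0, and 2 fell (medians 0.38, 0.37, and 0.76). MMP13, a collagenase, rose by 2.76 ± 0.65, 3.58 ± 0.71, and 2.51 ± 0.79 on ENT, SLE, and MLE, from sham means of only 0.126, 0.103, and 0.115 CPM, which are a few reads, and its ENT value was 3.89 without both matching libraries. PLAT, the tissue plasminogen activator, rose by 1.77 ± 0.34, 1.94 ± 0.36, and 2.97 ± 0.40, and the metalloproteinase MMP9 by 2.24 ± 0.50, 1.94 ± 0.50, and 2.60 ± 0.60. The ENT value of MMP9 was 2.87 without both matching libraries, and its SLE value with the 3-digit number as a block was 0.94 (adjusted p = 0.260). MMP7, a metalloproteinase of ductular epithelium, rose by 2.22 ± 0.52 on ENT, which became 4.31 without both matching libraries, and by 2.15 ± 0.60 on MLE. Its SLE difference of 1.49 ± 0.54 did not pass with all pigs (adjusted p = 0.0995) and passed without both matching libraries, at 1.49 (adjusted p = 8.07e-05), and with the block, at 1.49 (adjusted p = 0.0351). Of 33 other elastic fibre, proteoglycan, and matricellular genes, 6, 2, and 7 rose and 1, 0, and 4 fell (medians -0.02, 0.07, and -0.03). SPP1, osteopontin, rose by 2.17 ± 0.28 on ENT and 1.54 ± 0.32 on MLE, beside 0.05 ± 0.28 on SLE, where sham pigs held 112 ± 41.4 CPM (mean ± SD, n = 10). MGP, which binds calcium in matrix, rose on ENT (1.13 ± 0.22), and EFEMP1, a fibulin, on MLE (1.10 ± 0.36).

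Marker genes of liver cell types were read beside these results. Over all genes, 8.89%, 2.97%, and 7.85% rose and 8.53%, 1.57%, and 6.58% fell on ENT, SLE, and MLE. Hepatocyte markers (5 of 6 with a row) fell in 3 cases on ENT, 0 on SLE, and 4 on MLE. Their summed level was 44462 to 114847 (median 100626) CPM in ENT-sham, 44464 to 85882 (median 56429) in ENT-BDL, 62726 to 90863 (median 72840.3) in SLE-sham, 44037 to 97179.7 (median 67016) in SLE-BDL, 64115 to 111502 (median 81237) in MLE-sham, and 41065 to 55108 (median 49905) in MLE-BDL pigs. Cholangiocyte markers rose in 5 of 7 on ENT, 1 of 7 on SLE, and 6 of 7 on MLE. Their sums were 73.3 to 372 (median 127) and 227 to 415 (median 296) CPM in sham and BDL pigs on ENT, 219.9 to 385 (median 310.3) and 267 to 452 (median 364) on SLE, and 172 to 243 (median 204) and 248 to 455 (median 350.8) on MLE. In SLE-sham pigs the largest parts of the cholangiocyte sum were CLDN4 and SPP1, at means of 127 and 112 CPM, with KRT19 next at 24.8. SPP1 is the gene also counted with the matrix genes above. On SLE these 2 differed by -0.01 and 0.05, while KRT7 rose by 1.46 and the rest stood at 0.52 to 0.84 without passing. The part of hepatocyte and cholangiocyte markers in the matrix results was not tested.

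Of the markers of stellate cells and myofibroblasts, 0 of 9 rose and 1 fell on ENT, 2 rose on SLE, and 0 rose and 1 fell on MLE. ACTA2, the smooth muscle actin of myofibroblasts, differed by 0.10, 0.61, and 0.50 on ENT, SLE, and MLE, and passed on SLE alone (edgeR adjusted p = 0.0464). RGS5 also rose on SLE, by 1.15 (adjusted p = 0.0222). DES was the marker that fell, at -0.43 on ENT (adjusted p = 0.0419) and -0.83 on MLE (adjusted p = 5.35e-04). NGFR stood at -0.19, -0.30, and -0.43 on ENT, SLE, and MLE and passed on no diet. The summed level was 325 to 503 (median 399) and 284 to 513 (median 439) CPM in sham and BDL pigs on ENT, 268 to 489 (median 389) and 269.9 to 616 (median 452) on SLE, and 384 to 496 (median 420.1) and 449.7 to 615 (median 522) on MLE. Of 5 portal fibroblast markers with a row, GAS6 alone rose, on MLE. Endothelial markers fell in 2 of 6 on ENT, 0 on SLE, and 1 on MLE, and smooth muscle markers in 1 of 4, 0, and 1, with 1 rise on ENT. MARCO was the 1 of 5 macrophage markers that rose on each diet. No lymphocyte marker passed, and 2 of 5 erythroid markers fell on MLE. The B cell marker MS4A1 was at 0 in 8 of 60 libraries.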

How the data were processed

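Per the study's methods, the authors trimmed reads with fastp, aligned them to the pig genome Sscrofa11.1 with HISAT2 (2.0.5), and counted reads per gene with featureCounts (1.5.0-p3). The submitters' processing notes also name StringTie (1.3.3). The deposited table holds these raw counts, 1 column for each of the 60 libraries, with gene symbol, position, and length. The treatment of strand and of reads with several matches is not given in the sources used here. The 24 features without a symbol, 0.00842 to 0.0407% of reads, were left out. The remaining totals were 14469788 to 21374161 reads (median 17254606), with 18595 to 20559 genes detected, so that members near 1 CPM rest on few reads.

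Counts were fitted in edgeR (4.0.16, R 4.3.3) with TMM scaling, filterByExpr on the 6 groups (16210 genes kept), and the robust quasi-likelihood test. All pigs entered 1 model, which gave 9 comparisons of 2 groups and 3 tests of a differing response, two-sided, with Benjamini-Hochberg adjustment over all genes at 0.05. The SE is the log2 fold change over the root of F, and intervals span 1.96 SE. Log2 CPM used a prior count of 2. DESeq2 (1.42.0), edgeR on the groups compared, RLE scaling, no filter, at least 10 counts in every pig, the replicate number or the 3-digit number of the labels as a block, and leaving out libraries were the alternatives. Correlations used Python (3.11.15), with scipy (1.17.1) and numpy (2.4.6).

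The members and the gene lists were chosen with earlier results of these data known. Members were described with all group levels where they passed the test with a fold change above 2 in any comparison of 2 groups, or had the largest change of their class between BDL and sham, and others by counts, ranges, or single values. Genes of the further lists were named past 2-fold, at most 4 a list. Some items that met these rules are not reported here. Groups came from the diet and surgery labels. The labels give no litter, so p-values measure the spread between these pigs.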

Additional observations from a re-analysis of the deposited data

Results flagged for a closer look

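In 11 of 160 sets of 1 gene in 1 group of 8 to 10 pigs, a single pig lay farther from the rest than Dixon's 95% criterion allows. Chance gives about 1 such pig in 20 sets, and the 11 lie near that share. ENT-sham and SLE-BDL, with 12 and 11 pigs, were not screened. MLE-sham replicate 9 was high for 3 genes. It held 88.6 CPM of COL6A2, where the rest of its group held 40.99 to 58.8, 224 CPM of ELN against 35.7 to 77.4, and 474 CPM of SPARC against 203 to 285. MLE-BDL replicate 4 was high for 2 genes, with 129.7 CPM of ELN against 19.6 to 30.7 and 7.16 CPM of LUM against 0.412 to 1.53.

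The other 6 pigs were low. FN1 stood at 3070.03 CPM in ENT-BDL replicate 4 against 4979 to 6462 in that group, and at 4649 CPM in MLE-sham replicate 7 against 6130.02 to 7617. LAMA2 was at 17.0 CPM in MLE-sham replicate 2 against 28.1 to 46.3, and FBN1 at 45.5 CPM in ENT-BDL replicate 5 against 67.4 to 87.8. In SLE-sham pigs, LTBP2 was at 3.88 CPM in replicate 6 against 9.25 to 20.1, and TIMP2 at 27.0 CPM in replicate 2 against 38.1 to 53.1.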

How the results depend on the processing

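The counts of members that differed between BDL and sham stayed within 1.5 times their value (19 on ENT, 10 on SLE, 26 on MLE) under every alternative run, and no member past the test changed sign in any of them. Leaving out 1 library gave 16 (without ENT-BDL replicate 2) to 27 (without ENT-sham replicate 2) on ENT, 8 (without SLE-BDL replicate 2) to 14 (without SLE-sham replicate 4) on SLE, and 23 (without MLE-BDL replicate 7) to 29 (without SLE-BDL replicate 7) on MLE. Of the 55 calls between BDL and sham, 9 were lost on leaving out some 1 library, 7 under another alternative, and 12 under either. The 7 were COL5A1, BGN, and THBS2 on SLE, COL4A2, LOXL1, and LOXL2 on ENT, and DCN on MLE. With edgeR on the SLE groups alone the SLE count was 7. Of the 21 between diets these counts were 11, 14, and 14.

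Comparisons between diets moved more. With edgeR on the groups compared, counts were 0 for SLE-BDL against ENT-BDL (3 with all pigs), 4 for MLE-BDL against ENT-BDL (7), and 0 for MLE-BDL against SLE-BDL (2). With no filter the first was 1 and the second 4. With the 3-digit number as a block, these 3 counts were 8, 4, and 0, while MLE-sham against ENT-sham gave 1 (3) and MLE-sham against SLE-sham 0 (1). Without both matching ENT libraries, SLE-BDL against ENT-BDL gave 7, SLE-sham against ENT-sham 14 (5), MLE-sham against ENT-sham 5, and the differing response of SLE against ENT 1 (0).

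Leaving out 1 library gave 0 (without SLE-BDL replicate 2) to 6 (without SLE-BDL replicate 11) for SLE-BDL against ENT-BDL and 3 (without MLE-BDL replicate 7) to 8 (without MLE-BDL replicate 6) for MLE-BDL against ENT-BDL. It gave 1 (without MLE-BDL replicate 7) to 2 for MLE-BDL against SLE-BDL and 4 (without ENT-sham replicate 11) to 15 (without ENT-sham replicate 2) for SLE-sham against ENT-sham. It gave 2 (without MLE-sham replicate 2) to 5 (without ENT-sham replicate 2) for MLE-sham against ENT-sham, 0 (without MLE-sham replicate 3) to 1 for MLE-sham against SLE-sham, and 0 to 1 (without ENT-sham replicate 2) for the response of SLE against ENT. The causes were not tested.

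Same-numbered pigs of compared groups did not deviate together. Over 82 such pairs the correlation of their deviations was -0.231 to 0.381 (median -0.0112), with 20 pairs over 0.1, so the replicate numbers share only a number. With them as a block, the counts between BDL and sham were 18, 11, and 26 on ENT, SLE, and MLE. With the 3-digit number as the block they were 22, 10, and 29. Among the 40 members, depth limits LUM most, at medians near 1 CPM.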
